A study of Mus musculus with 10 samples.

Results

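Among the 21437 genes of the expression table, 54 were chosen by their levels in oocytes and control embryos as genes activated by the 2-cell stage and sustained to the 4-cell stage of mouse development. The level is given as FPKM, a fragment count scaled to transcript length and library size, and was required to be 10 or more in both 2-cell and both 4-cell control libraries, and 1 or less in both MII oocyte libraries. Genes whose names start with the prefixes of large families (ribosomal protein, proteasome, zinc-finger and others) had been set aside, which removed 9 of the 63 genes that passed the thresholds. The study compared unfertilized MII oocytes with embryos of the middle 2-cell and of the early 4-cell stage, taken as controls or after Ago2 knockdown (Ago2 kd), with 2 libraries of each of the 5 groups. The labels name ICR as the strain and wild type or Ago2-kd as the genotype; by the methods and protocols, females were 7 weeks old, oocytes came from ICR females at 16 h after hCG, and embryos came from F1 females mated to F1 males, at 40 h for the 2-cell and 55 h for the 4-cell stage. Strain and stage therefore cannot be told apart between oocytes and embryos. Ago2 kd embryos had been injected as zygotes with siRNA against Ago2 and with AGO2 antibodies, so the knockdown is transient and acts on RNA and protein; the methods name a scrambled siRNA as the negative control, but no label says what the embryos of the control libraries received. The Ago2 level itself was not analysed here.

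The control and oocyte libraries chose these genes, so low oocyte values and control embryo values of at least 10 FPKM are the definition of the set and not a finding. The Ago2 kd libraries had no part in the choice, and a comparison of 4-cell with 2-cell embryos within Ago2 kd has both its means from libraries that did not choose the genes. Its spread, in the fit used here, is estimated over all 10 libraries, the choosing ones included, and the result from the 4 Ago2 kd libraries alone is given beside it. A comparison of Ago2 kd with control does use them, and a gene required to be high in the controls is more likely to look lower elsewhere. Those comparisons are given as descriptions, beside the 818 genes held to the same 10 FPKM in the 4 control embryo libraries but above 1 FPKM in an oocyte library (comparison genes). No name prefix was dropped from the comparison genes, so they can hold the large families that were set aside from the members. The 2 sets may therefore differ in more than the oocyte level. Of the genes closest to the threshold, Sertad1 and Cstb had a lowest control embryo value of 10.05 FPKM and Pop4 of 10.1, whereas Alppl2 (9.68 FPKM), Gm12620 (9.42) and Gm7027 (9.37) stayed just outside. On the oocyte side, Slc25a25 (0.968 FPKM) lay just inside and Gm6136 (1.01 FPKM) just outside.

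After fertilization the mouse embryo runs on RNA stored by the oocyte until its own genome is switched on, in a minor wave in the zygote and a major wave in the middle-to-late 2-cell stage. Some genes of that zygotic genome activation (ZGA) are expressed in a short burst, among them the Zscan4 and Tdpoz gene families, and others serve every cell and stay on. Genes without a maternal store show embryonic transcription without the overlay of decaying maternal mRNA. The genes described here were at 1 FPKM or less in oocytes by choice, which does not exclude maternal RNA read under another row. Of the close copies of members in the table, the highest in oocytes was Gtf2a1, the parent of the pseudogene Gm5435, with 75.72 and 60.35 FPKM. Whether such RNA was present for the members was not tested. AGO2 is the Argonaute protein that cuts RNA guided by small RNAs, and the study used its knockdown to ask how maternal mRNAs are cleared and whether ZGA is affected.

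The libraries are of whole embryos, in which fewer cells and less RNA per cell cannot be told apart. Their FPKM summed to between 178681 and 458874, with 4885 to 5823 genes at 1 FPKM or more. The table gives no counts, which leaves the depth unknown, and precision was judged from the spread between the 2 libraries of a group. No label says that the libraries of a group came from separate collections, and p values then measure only the spread between these libraries. Of 18 markers of cumulus cells, which surround the oocyte, the 4 in the table summed to between 0 and 0.182 FPKM in every library. The summed level of 20 oocyte mRNAs was 38883 and 41866 FPKM in oocytes, 13858 and 12282 in 2-cell controls, 11447 and 13133 in 2-cell Ago2 kd, 86.1 and 55.4 in 4-cell controls and 117.4 and 438.9 in 4-cell Ago2 kd.

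By GENCODE M21 annotation (GRCm38), 38 of the 54 genes are protein coding, 14 are pseudogenes, 1 (B020004C17Rik) is a long intergenic noncoding RNA and 1 (AK010878) was not matched. Pseudogenes made up 26.4% of the annotated members, 25.3% of the annotated comparison genes and 14.4% of the annotated genes tested. Of the 53 annotated members, 18 had no intron, and 29.8% of the comparison genes and 21.1% of the genes tested had none. All 54 members were among the 8726 genes tested (at least 1 FPKM in at least 2 libraries), which their control levels guarantee. Members lay near each other in several places. Gm5541, Gm37596, Tdpoz4 and Gm9141, all related to the Tdpoz family, lie in a row on chromosome 3 between 93628640 and 94243470. Trim43a and Trim43b lie 495805 bases apart on chromosome 9, and Gm12617 and Gm12621 lie 100593 bases apart on chromosome 11.

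The promoters of 5 members whose levels are described below are shown as examples. Each window runs from 250 bases before to 50 after the start site of the RefSeq annotation (GRCm38.p6), 5′ to 3′ on the strand of the gene, and capitals mark matches, on either strand, to 11 short motifs. These were the TATA box spelled TATAAA, the GC box spelled GGGCGG, the CCAAT box, the ETS core spelled CGGAAG, the YY1 core spelled ATGGCGG, the NRF1 core spelled GCATGCG, the E-box spelled CACGTG, the CRE core spelled TGACGTC, the OBOX core spelled GGATTA, the NR5A2 core spelled AAGGTCA and the TEAD core spelled GGAATG. Copb2 (chr9:98563481-98563780, plus strand) holds 2 GC boxes and 2 ETS cores, and Vimp (current symbol Selenos; chr7:66079399-66079698, plus strand) holds both as well. Gabpa (chr16:84834874-84835173, plus strand) encodes an ETS factor itself and has 1 ETS core and 2 YY1 cores, and its last run of capitals is formed by 2 overlapping NRF1 matches, on either strand. Trim43a (chr9:88580641-88580940, plus strand) and Usp17lb (chr7:104842534-104842833, minus strand) have windows with 1 CG dinucleotide each, against 26 in Copb2 and 23 in Vimp.
Copb2: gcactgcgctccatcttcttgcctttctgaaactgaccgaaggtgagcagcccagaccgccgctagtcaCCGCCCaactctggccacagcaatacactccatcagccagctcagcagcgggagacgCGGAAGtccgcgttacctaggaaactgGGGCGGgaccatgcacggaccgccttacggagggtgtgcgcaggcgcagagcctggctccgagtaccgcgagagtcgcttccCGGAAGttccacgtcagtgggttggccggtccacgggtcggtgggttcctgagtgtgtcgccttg
Vimp: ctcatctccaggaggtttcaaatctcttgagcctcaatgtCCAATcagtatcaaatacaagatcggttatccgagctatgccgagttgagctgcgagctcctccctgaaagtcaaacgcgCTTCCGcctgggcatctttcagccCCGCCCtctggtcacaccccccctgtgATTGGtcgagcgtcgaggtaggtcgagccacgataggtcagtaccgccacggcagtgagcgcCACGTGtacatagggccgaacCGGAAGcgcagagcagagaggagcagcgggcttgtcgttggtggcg
Gabpa: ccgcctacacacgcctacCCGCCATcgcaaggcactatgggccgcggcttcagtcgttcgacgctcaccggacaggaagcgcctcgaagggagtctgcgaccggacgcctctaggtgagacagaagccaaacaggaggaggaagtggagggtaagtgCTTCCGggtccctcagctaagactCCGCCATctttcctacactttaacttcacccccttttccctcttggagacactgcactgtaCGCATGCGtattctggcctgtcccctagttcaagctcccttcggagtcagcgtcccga
Trim43a: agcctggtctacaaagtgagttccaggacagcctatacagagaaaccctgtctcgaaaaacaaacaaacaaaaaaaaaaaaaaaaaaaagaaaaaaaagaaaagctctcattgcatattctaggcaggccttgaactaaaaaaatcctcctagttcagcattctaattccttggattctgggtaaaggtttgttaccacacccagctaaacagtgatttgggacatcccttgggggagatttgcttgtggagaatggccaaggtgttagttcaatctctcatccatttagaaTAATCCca
Usp17lb: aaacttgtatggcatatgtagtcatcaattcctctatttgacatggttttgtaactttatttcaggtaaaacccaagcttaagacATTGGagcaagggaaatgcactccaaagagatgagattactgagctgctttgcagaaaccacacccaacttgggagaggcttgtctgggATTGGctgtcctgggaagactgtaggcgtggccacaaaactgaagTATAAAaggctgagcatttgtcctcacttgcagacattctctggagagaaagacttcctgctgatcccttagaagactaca
The windows of Copb2, Vimp and Gabpa are of the kind found at genes active in most cells, rich in CG and without a TATA box, while Usp17lb has a TATA box and the Trim43a window holds an OBOX core as its only match.

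RefSeq windows were at hand for 34 of the 54 genes (36 windows). ETS cores were found in 44.4% of them, against 16.9% of all 32851 windows, but also in 44.4% of the windows of the comparison genes. The CCAAT box was in 58.3% of member windows, against 40.7% of those of the comparison genes and 37.4% of all windows, and the GC box in 55.6%, against 66.3% and 35.7%. CRE cores stood in 13.9% of member windows, those of Copz1, Mdh2, Plk2, Pop4 and Slc25a25, against 6.81% and 3.21%. OBOX cores stood in 8.33% (D1Pas1, Pop4 and Trim43a), against 8.31% and 7.06%, TEAD cores in 8.33%, against 11.3% and 14.7%, and no member window held an NR5A2 core, against 2.82% and 4.72%. The median GC content was 57.8% in member windows and 52.7% in all windows. It was not computed for the comparison genes or the genes tested, so it is not shown to be particular to the members. These are descriptions of letters in a window and were not tested.

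**Figure D1:**
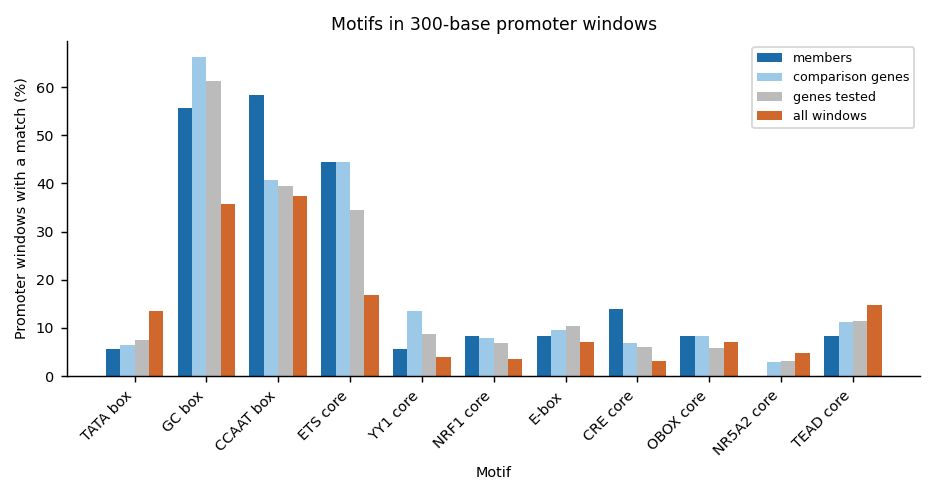
Share of promoter windows (y axis, %) with a match to each of 11 motifs (x axis), for the members (36 windows), the comparison genes (602 windows), the genes tested (6843 windows) and all 32851 RefSeq windows. The ETS core share of the members equals that of the comparison genes, at 44.4%.

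Of the 53 genes with an annotated transcript, 20 had a copy elsewhere in the transcriptome at 90% identity or more over at least 80% of their length, so reads of these genes and of their copies may not be told apart. A stretch of the processed pseudogene Gm15210 is shown for this reason (chr8:100031249-100031448, plus strand, GRCm38), with capitals at the bases that differ from the coding sequence of its parent gene Impdh2, whose enzyme acts in the synthesis of guanine nucleotides. Gm15210 differs from Impdh2 at 3 of 1049 aligned coding bases.
Gm15210: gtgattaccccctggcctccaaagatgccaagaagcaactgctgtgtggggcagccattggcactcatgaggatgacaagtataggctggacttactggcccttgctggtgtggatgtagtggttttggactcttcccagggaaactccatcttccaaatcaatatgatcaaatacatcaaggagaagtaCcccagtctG
The stretch holds 2 of the differences, so a short read from most of Gm15210 fits its parent as well. In the table the copy took the signal and the parent did not: Gm15210 reached 1113 FPKM while Impdh2 stayed at 1.3 FPKM or less in all 10 libraries, and Gm9385 reached 778.5 while Rpl24 stayed at 7.49 or less. For Gm6157 and its parent Slc5a6 both rows were high at the 4-cell stage, with 401.6 and 415.2 FPKM for Gm6157 and 262.8 and 319.1 for Slc5a6 in controls and 331.2 and 103.1 against 310.9 and 48.89 in Ago2 kd. For these genes the name in the table may stand for the parent, for the copy or for both.

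Fewer members reached 10 FPKM in 2-cell than in 4-cell Ago2 kd embryos. At the 2-cell stage 29 of 54 genes reached 10 FPKM in Ago2 kd replicate 1 and 43 in replicate 2, with 25 (46.3%) in both. At the 4-cell stage the numbers were 49 and 43, with 40 (74.1%) in both. Of the comparison genes, 82.9% and 84.4% reached 10 FPKM in both Ago2 kd libraries of the 2-cell and of the 4-cell stage. In 2-cell controls the members stood nearer this threshold, with medians of 22.4 and 33.3 FPKM against 40.8 and 48.2 in the comparison genes. In 4-cell controls the medians were 64.7 and 63.5 against 64.9 and 58.0 FPKM. The part of the starting level in these shares was not tested. The 2-cell number rests on replicate 1, since 43 genes qualify without it and 29 without replicate 2. In all, 20 genes stood at 10 FPKM or more in all 4 Ago2 kd libraries.

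**Figure D2:**
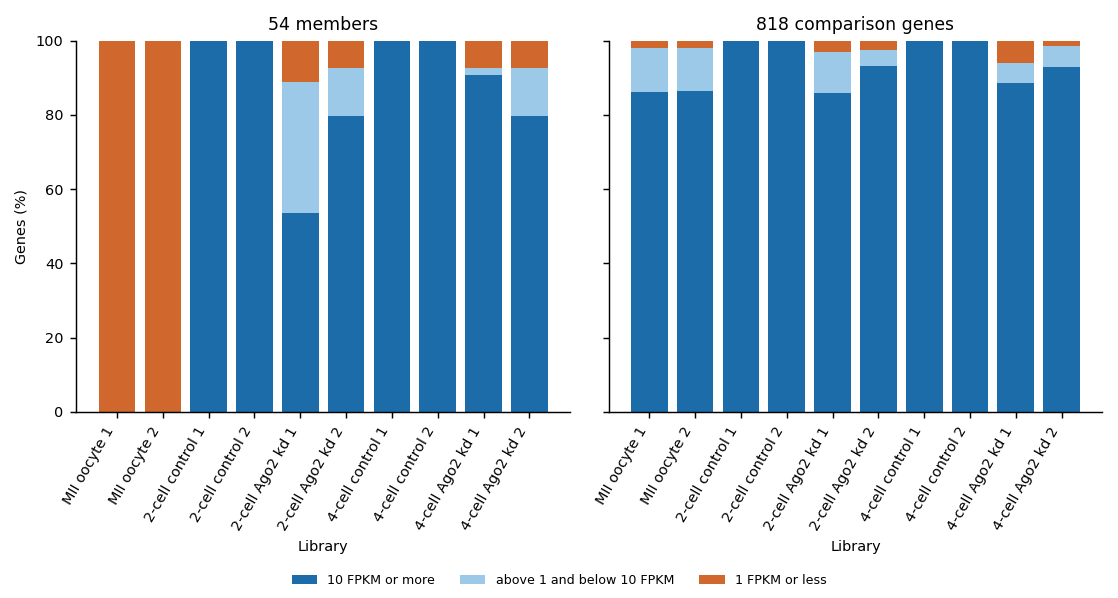
Share of genes (y axis, %) at 10 FPKM or more, between 1 and 10 FPKM, and at 1 FPKM or less in each of the 10 libraries (x axis), for the 54 members (left) and the 818 comparison genes (right). The control columns of the members are fixed by how they were chosen; in 2-cell Ago2 kd replicate 1, 53.7% of members and 85.9% of comparison genes reached 10 FPKM.

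To show what the choice of genes does by itself, the thresholds were read on 1 control replicate only and the other libraries were then examined. Read on control replicate 1, they chose 105 genes, of which 75.2% reached 10 FPKM in the unused 2-cell control, 44.8% in 2-cell Ago2 kd replicate 1 and 65.7% in replicate 2. Read on control replicate 2, they chose 162 genes, of which 49.4% did so in the unused 2-cell control, 33.3% in Ago2 kd replicate 1 and 60.5% in replicate 2. The unused control thus lay above both Ago2 kd libraries in the first reading and between them in the second. At the 4-cell stage the unused controls reached 81.0% and 85.2%, and the Ago2 kd libraries 76.2% to 82.1%.

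The median level of the 54 genes was 22.4 and 33.3 FPKM in the 2-cell controls, 12 and 21.3 in 2-cell Ago2 kd, 64.7 and 63.5 in the 4-cell controls and 74.4 and 61.2 in 4-cell Ago2 kd. Their summed share of all FPKM was 0.921% and 1.36%, then 0.537% and 0.905%, then 4.23% and 4.02%, and finally 4.59% and 3.49% in the same order of groups. At the 2-cell stage neither measure overlapped between the groups, although Ago2 kd replicate 2 lay just below control replicate 1, and at the 4-cell stage both overlapped. In 2-cell Ago2 kd replicate 1, 49 of 54 genes (90.7%) lay below both controls, against 60.3% of the comparison genes and 32.9% of all genes tested; in replicate 2 it was 25 genes (46.3%), against 29.8% and 24.9%. The controls differed too, with 2-cell control replicate 1 below replicate 2 in 44 of 54 genes by a median of 0.64 on the log2(FPKM + 1) scale. The summed level of 23 genes known for a burst at the 2-cell stage, Tdpoz4 and Usp17lb among them, was 905 and 1472 FPKM in the 2-cell controls and 558 and 725 in 2-cell Ago2 kd; its part in the lower values of the set was not tested.

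**Figure D3:**
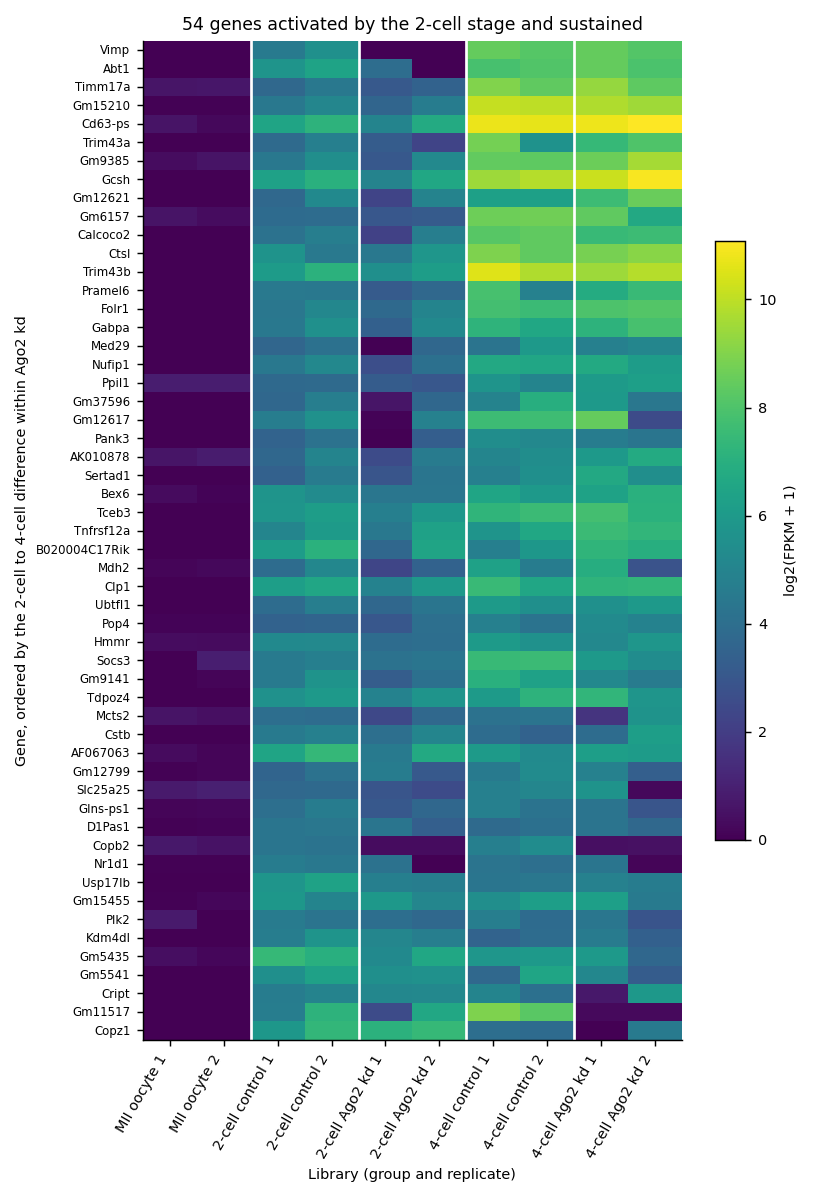
Level of the 54 genes (rows, ordered by the difference between 4-cell and 2-cell Ago2 kd embryos) in the 10 libraries (columns), as log2(FPKM + 1). White lines separate the groups, and the darkest cells outside the oocyte columns are the values of 1 FPKM or less in Ago2 kd libraries, such as Copb2 in all 4 of them.

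At the 2-cell stage, Copb2 and Vimp were lower in Ago2 kd than in control embryos at an adjusted p below 0.05 (limma on log2(FPKM + 1), Benjamini-Hochberg over 8726 genes), and no member was higher. Over all genes tested, 0.218% were called lower and 0.332% higher, and of the comparison genes 0.489% and 0.122%. At an unadjusted p of 0.05 (limma), the threshold of the study, 8 members were lower (14.8%) and 0 higher. Of all genes tested 3% were lower and 2.96% higher, and of the comparison genes 5.38% and 1.47%. In 24 members (44.4%) both Ago2 kd libraries lay below both controls, against 14.7% of all genes tested and 22.2% of the comparison genes. In 1, Cript, both lay above, against 14.4% of all genes tested and 11.98% of the comparison genes. The median difference was −0.89 in the members, −0.15 in the comparison genes and 0.00 in all genes tested. In a fit of the 2 groups of 2-cell embryos alone, Copb2 and Vimp were not called (adjusted p = 0.146 for both, limma).

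At the 4-cell stage, Copb2 and Gm11517 were lower at an adjusted p below 0.05 (limma), and 0 members were higher. In a fit of the 2 groups of 4-cell embryos alone, neither was called (adjusted p = 0.142 for both, limma). In the fit of all 10 libraries, the background was 2.77% lower and 1.23% higher among all genes tested, and 2.08% and 0.978% among the comparison genes. At an unadjusted p of 0.05 (limma), 4 members were lower (7.41%) and 0 higher. This was so for 8.07% and 7.37% of all genes tested and for 8.56% and 11% of the comparison genes. Both Ago2 kd libraries lay below both controls in 8 members (14.8%, background 16.9%) and above both in 12 (22.2%, background 20.1%). Of the comparison genes, 20.66% lay below and 33.99% above both controls. The median difference was −0.05 in the members, 0.09 in the comparison genes and 0.00 in all genes tested. Without either 4-cell control library Copb2 was the 1 member still called. Without Ago2 kd replicate 1 the called members were 3 (Copb2, Gm6157 and Slc25a25), and without replicate 2 also 3 (Copb2, Copz1 and Cript).

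Copb2 (chromosome 9, 98563721 to 98588382, plus strand) encodes a subunit of the COPI coat, which returns vesicles from the Golgi to the endoplasmic reticulum. It was at 0.638 and 0.475 FPKM in oocytes, 19.0 and 17.6 in 2-cell controls, 26.6 and 40.5 in 4-cell controls, 0.297 and 0.273 in 2-cell Ago2 kd and 0.361 and 0.397 in 4-cell Ago2 kd. All 4 Ago2 kd libraries thus lay below the oocyte level, and no other member was at 1 FPKM or less in all of them. The difference from control was −3.91 (SE 0.36, adjusted p = 0.00861, limma) at the 2-cell and −4.62 (SE 0.36, adjusted p = 0.000742) at the 4-cell stage on the log2(FPKM + 1) scale, which understates a fall to values this low. Copz1, the other coat subunit in the set, was not low in 2-cell embryos: it had 57.7 and 159.6 FPKM in 2-cell controls and 138.8 and 171.6 in 2-cell Ago2 kd. Of the other coat genes in the table, looked up after these values were seen, Copb1 was at 18.64 and 13.1 FPKM in 2-cell controls and 20.55 and 17.15 in 2-cell Ago2 kd, and Cope and Copg1 were at 1.07 FPKM or less in those 4 libraries. Copa differed within groups, with 0.81 and 20.76 FPKM in 2-cell controls and 8.28 and 0.374 in 2-cell Ago2 kd, and Arcn1, Copg2 and Copz2 were at 1.37 FPKM or less there. At the 4-cell stage Copa was at 1.24 and 12.4 FPKM in controls and at 0.264 and 0.635 in Ago2 kd, below both controls, and Arcn1 was at 26.45 and 24.02 against 0.198 and 51.1. Copb1 was at 6.47 and 0 against 9.48 and 12.5 FPKM and Cope at 1.2 and 0.251 against 7.57 and 3.86, both above both controls, Copz1 was at 15.3 and 13.9 against 0 and 22.4, and Copg1, Copg2 and Copz2 were at 0.0631 FPKM or less.

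Vimp (chromosome 7, 66079649 to 66089405, plus strand) encodes selenoprotein S, a membrane protein of the endoplasmic reticulum that helps remove misfolded proteins. It was listed at 0 in both oocyte and both 2-cell Ago2 kd libraries, at 22.9 and 46.6 FPKM in 2-cell controls, at 349.7 and 283.8 in 4-cell controls and at 354.7 and 279.3 in 4-cell Ago2 kd. The gene was therefore not detected in the 2-cell Ago2 kd libraries and stood at the control level in those of the 4-cell stage. The difference between the stages in the effect of Ago2 kd was called for this gene (adjusted p = 0.00701, limma), the only member for which it was, where 0.642% of all genes tested were called with a higher and 1.64% with a lower effect at the 4-cell stage. Of the comparison genes, 0.978% were called with a higher and 0.489% with a lower effect. At an unadjusted p of 0.05 (limma), 6 members had a higher and 2 a lower effect, against 6.27% and 7.11% of all genes tested. The shares of the comparison genes were 10.02% and 6.23%. Without 2-cell Ago2 kd replicate 1 the called members became 3, with Abt1 and Gm11517, without 4-cell Ago2 kd replicate 2 also 3, with Copz1 and Cript, and without 4-cell Ago2 kd replicate 1 2, with Slc25a25.

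Gm11517 (chromosome 11, 96795439 to 96795825, minus strand) lies within Cbx1 on the other strand, whose level was at most 4.6 FPKM in any library. It had 25.1 and 141.3 FPKM in 2-cell controls, 4.8 and 99.2 in 2-cell Ago2 kd, 496.7 and 307.5 in 4-cell controls and 0.2 in both 4-cell Ago2 kd libraries. It was called at the 4-cell stage (difference −8.35, SE 1.33, adjusted p = 0.0193, limma), but leaving out any of the 4 libraries compared raised the adjusted p to between 0.0504 and 0.0938. Its closest relative, Gm11808, had 58.15 and 43.74 FPKM in 4-cell controls and 70.48 and 140.3 in 4-cell Ago2 kd. The row of Gm11517 was thus near 0 in libraries where that of Gm11808 was higher than in the controls; how the reads were divided between these rows was not tested.

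**Figure D4:**
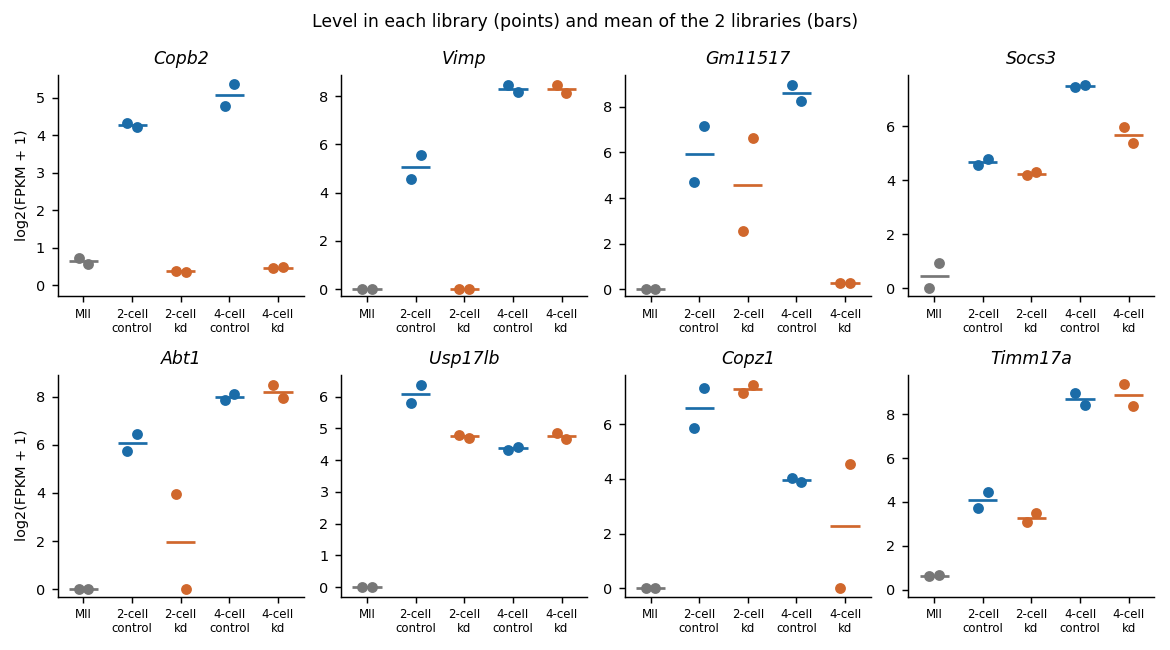
Level of 8 members as log2(FPKM + 1) (y axis) in MII oocytes and in control (blue) and Ago2 kd (orange) embryos of each stage; points are libraries and bars the mean of the 2 libraries. Copb2 is low in all Ago2 kd libraries, Vimp only at the 2-cell and Gm11517 only at the 4-cell stage.

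The other members lower at an unadjusted p of 0.05 at the 2-cell stage did not pass adjustment. Abt1, an activator of basal transcription, had 51.9 and 85.9 FPKM in 2-cell controls and 14.4 and 0 in Ago2 kd, then 233.6 and 271.4 in 4-cell controls and 354.9 and 243.7 in Ago2 kd. It was called at the 2-cell stage only when replicate 1 of Ago2 kd was left out (adjusted p = 0.0199), leaving the library in which it was listed at 0. Usp17lb, a deubiquitinating enzyme of the 2-cell burst family, had 54.5 and 81.9 FPKM in 2-cell controls and 26.7 and 25.1 in Ago2 kd (difference −1.33, SE 0.34, adjusted p = 0.281, limma). At the 4-cell stage it had 19.1 and 20.3 in controls and 27.9 and 24.2 in Ago2 kd, so the 2 Ago2 kd groups lay between 24.2 and 27.9 while the controls moved from above to below them. Usp17lb has 5 close copies in the annotation, and those in the table did not move together. In 2-cell controls Usp17la had 19.14 and 20.17 FPKM, against 0 and 4.27 in Ago2 kd. Usp17lc had 12.22 and 10.1 against 22.06 and 21.56, and Usp17ld 0.403 and 0.974 against 0.595 and 13.4. How reads were divided between these rows was not tested. Hmmr, a spindle protein, had 37.7 and 36.5 FPKM in 2-cell controls and 14.3 and 15.3 in Ago2 kd (difference −1.27, SE 0.36, adjusted p = 0.373, limma). Bex6 had 52.1 and 39.8 FPKM against 19.7 and 19.4, Nufip1, an assembly factor of small nucleolar RNPs, had 20.4 and 35.0 against 5.33 and 16.2, and Gm9141 of the Tdpoz family had 22.8 and 51.0 against 8.53 and 16. In these members both 2-cell Ago2 kd libraries lay below both controls.

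At the 4-cell stage, Socs3, an inhibitor of cytokine signalling through JAK and STAT proteins, had 176.6 and 186.1 FPKM in controls and 62.0 and 41.2 in Ago2 kd. Its groups did not overlap, and the difference of −1.82 (SE 0.41) had an adjusted p of 0.0668 (limma). At the 2-cell stage Socs3 had 22.6 and 26.8 FPKM in controls and 17.2 and 18.9 in Ago2 kd. Gm9141 had 129.9 and 81.3 FPKM in 4-cell controls and 35.2 and 23.3 in Ago2 kd (difference −1.81, SE 0.53, adjusted p = 0.153, limma), the only member with an unadjusted p below 0.05 at both stages besides Copb2. The genes with both 4-cell Ago2 kd libraries above both controls included Gcsh, of the glycine cleavage system, with 1181 and 2008 against 703.7 and 933.2 FPKM, and Tnfrsf12a, the receptor of the cytokine TWEAK, with 187.3 and 157.7 against 52.1 and 97.9; neither passed the test (adjusted p = 0.534 and 0.477, limma).

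Values of 1 FPKM or less made up 18 of the 216 values of the members in Ago2 kd libraries and belonged to 12 genes. Besides Copb2, Vimp and Gm11517 they fell in only 1 library of a stage. Nr1d1, which encodes the circadian repressor REV-ERB alpha, was at 17.3 and 0.021 FPKM in 2-cell and at 18.6 and 0.0991 in 4-cell Ago2 kd, low in replicate 2 of both. Med29, a Mediator subunit, and Pank3, a kinase of coenzyme A synthesis, were listed at 0 in 2-cell Ago2 kd replicate 1 and at 12 and 8.95 FPKM in replicate 2. Slc25a25, a mitochondrial carrier of ATP-Mg, was at 50.9 and 0.197 FPKM in 4-cell Ago2 kd, and Copz1 at 0 and 22.4. A member at 10 FPKM or more in 1 replicate was at 1 or less in the other in 5 of 47 cases (10.6%) in 2-cell Ago2 kd and in 4 of 52 (7.69%) in 4-cell Ago2 kd. Of the comparison genes this was so for 2.92% and 6.29% in the same groups. Over the whole table it was so for 13.4% and 21.4% of genes in these groups and for 13.4% and 12.98% in the 2-cell and 4-cell controls.

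Within Ago2 kd embryos, whose libraries had not chosen the genes, 27 of 54 members (50%) rose from the 2-cell to the 4-cell stage and 2 fell at an adjusted p below 0.05. Of all genes tested, 18.8% rose and 16.5% fell, and of the comparison genes 34.2% rose and 14.9% fell. The comparison genes had medians of 62.6 and 65.0 FPKM in oocytes, where the members were at 1 FPKM or less by choice. The part of decaying maternal mRNA in the shares of the comparison genes was not tested. Both 4-cell libraries lay above both 2-cell libraries in 35 members (64.81%), against 34.9% of all genes tested and 50.86% of the comparison genes. They lay below both in 4 (7.41%), against 29.2% and 24.69%. The median difference was 2.02 in the members, 0.75 in the comparison genes and 0.18 in all genes tested, on the log2(FPKM + 1) scale. In the controls, where the choice fixes a minimum at both stages, 37 members were higher and 9 lower in both 4-cell libraries, with a median difference of 1.21; 32 members were higher at the 4-cell stage in controls and in Ago2 kd. In a fit of the 4 Ago2 kd libraries alone, which held 53 of the members, 20 were called, all of them higher at the 4-cell stage, and both falls were lost, as were the rises of AK010878, Clp1, Hmmr, Pop4, Sertad1, Socs3 and Tceb3. Of the 29 calls within Ago2 kd, 18 held with each of the 4 libraries left out in turn; Clp1, Gabpa, Hmmr, Pop4, Pramel6, Sertad1, Socs3, Ubtfl1, AK010878, Copz1 and Gm11517 lost theirs in at least 1 of these fits. Vimp, listed at 0 in both 2-cell libraries, had the lowest adjusted p (6.45e-05, limma).

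**Figure D5:**
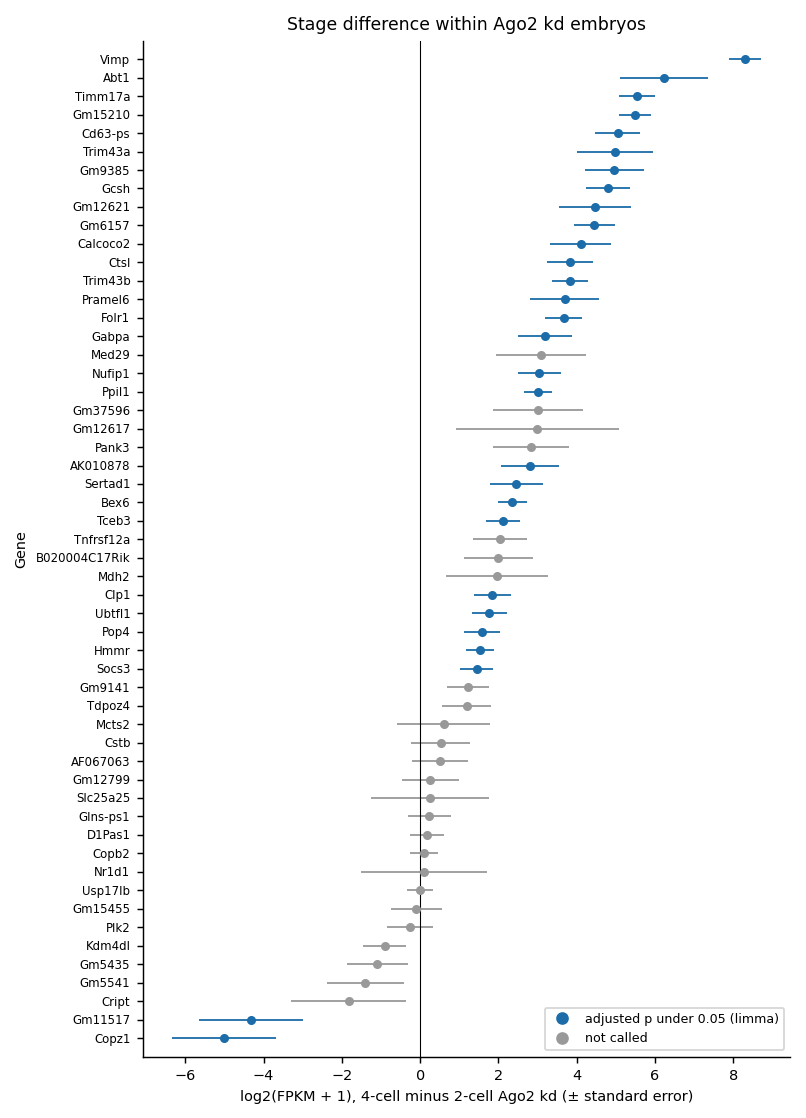
Difference between 4-cell and 2-cell Ago2 kd embryos for each of the 54 genes (y axis) as log2(FPKM + 1) (x axis), with its standard error from limma. Blue marks the 29 members called at an adjusted p below 0.05, of which Gm11517 and Copz1 were lower at the 4-cell stage and the other 27 higher.

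Among members with a role in mitochondria, Timm17a, a part of the import channel of the inner membrane, went from 7.59 and 10.2 to 649.5 and 324.8 FPKM in Ago2 kd (difference 5.55, SE 0.46, adjusted p = 0.000299, limma), and from 12.4 and 20.7 to 501.0 and 337.2 in controls. Gcsh went from 30.6 and 96.1 to 1181 and 2008 FPKM in Ago2 kd (difference 4.80, SE 0.57, adjusted p = 0.00122, limma). Mdh2, a malate dehydrogenase of the citric acid cycle, was at 3.95 and 10.2 and then at 117.7 and 6.07 FPKM, which did not pass the test. Of the 271 tested genes of the mitochondrial list, 77 rose and 15 fell within Ago2 kd, with 1 of its 3 members, Timm17a, among them.

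Of the members known to act on transcription or RNA, some rose and others did not pass the test, and only some of them are in a role list. Gabpa, the ETS factor whose promoter is shown above, went from 9.43 and 37.0 to 142.4 and 229.9 FPKM (difference 3.19, SE 0.69, adjusted p = 0.0114, limma), and its neighbour on the other strand, Atp5j, was at 3.78 FPKM or less in every library. Abt1 rose by 6.23 (SE 1.12, adjusted p = 0.00553, limma) and Nufip1 by 3.05 (SE 0.55, adjusted p = 0.00542). Tceb3 (elongin A, an elongation factor), Clp1 (an RNA kinase of 3′ end formation and tRNA splicing), Ppil1 (a spliceosome cyclophilin), Pop4 (a subunit of RNase P), Sertad1 (a cell cycle and transcription coregulator) and Ubtfl1 (an HMG-box gene of early embryos) rose as well, with differences of 2.11, 1.84, 3.01, 1.58, 2.46 and 1.77. Med29 did not pass the test, nor did Kdm4dl, Nr1d1 and the RNA helicase gene D1Pas1. The lists of transcription factors and of RNA processing held 141 and 221 tested genes, of which 27 and 46 rose and 24 and 21 fell within Ago2 kd.

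Among genes of vesicles, lysosomes and the cell surface, Ctsl, Folr1 and Calcoco2 rose and Copz1 fell. Ctsl, the lysosomal protease cathepsin L, went from 20.4 and 56.2 to 444.2 and 559.9 FPKM in Ago2 kd (difference 3.84, SE 0.59, adjusted p = 0.00302, limma), while Cstb, an inhibitor of such proteases, was at 15.5 and 31.6 and then at 14.0 and 72.5 FPKM. Folr1, a folate receptor, went from 12.7 and 30.7 to 254.3 and 274.1 FPKM, and Calcoco2, an autophagy receptor, from 3.4 and 25.9 to 176.9 and 195.3. Copz1 fell from 138.8 and 171.6 to 0 and 22.4 FPKM in Ago2 kd (difference −5.01, SE 1.32, adjusted p = 0.0248, limma), and in controls it was at 57.7 and 159.6 and then at 15.3 and 13.9. The call of Copz1 was lost without either 2-cell Ago2 kd library (adjusted p 0.0851 and 0.095). Of 355 tested genes of the membrane traffic list, 61 rose and 47 fell.

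Members of families known from early embryos and germ cells followed no common course. Trim43a and Trim43b, whose transcripts are 97.6% identical, went from 8.23 and 3.87 to 171.2 and 259.2 FPKM and from 44.6 and 70.8 to 697.7 and 933.2 FPKM in Ago2 kd, and both rose (adjusted p = 0.00762 and 0.00125, limma). Trim43c, outside the set because 2-cell control replicate 1 stood at 5.85 FPKM, had 228.8 and 213.1 FPKM in 4-cell controls and 96.7 and 202.9 in Ago2 kd. Pramel6 and Bex6 rose, and Tdpoz4 (29.5 and 52.8, then 154.7 and 53.5 FPKM), Gm9141, Gm37596 and Usp17lb did not pass the test. Gm5541, 1 of the Tdpoz relatives, was at 45.5 and 47.3 and then at 33.7 and 8.28 FPKM, which did not pass the test either. Of the 23 burst genes in the table, Usp17lb and Tdpoz4 are members, and the summed level of the list was between 142.9 and 247.6 FPKM in the 4 libraries of 4-cell embryos. Most of the list was low there, with a median gene between 0 and 0.229 FPKM. Tdpoz4 alone had 65 and 144.7 FPKM in the 4-cell controls, where the choice fixes a minimum.

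Copies of other genes were among the members with the highest levels in Ago2 kd embryos. Cd63-ps, a transcribed copy of the tetraspanin gene Cd63, went from 31.1 and 108.6 to 1773 and 2180 FPKM, and in 4-cell controls it was at 1743 and 1644, while the row of Cd63 reached 245.7 FPKM at most. Gm15210 rose from 11.2 and 24.6 to 862.3 and 728.4 FPKM (difference 5.49, SE 0.42, adjusted p = 0.000221, limma), and Gm9385 from 7.32 and 36.2 to 383.9 and 778.5 (difference 4.96, SE 0.75, adjusted p = 0.00284). Gm12621 had 11 close relatives in the annotation and went from 3.83 and 30.0 to 195.5 and 374.3 FPKM, and all 9 relatives in the table stood above 10 FPKM in at least 1 of the 4-cell Ago2 kd libraries. The 20 members with a close copy and the 34 with none found, which include AK010878 without a transcript to search, had similar median levels in 4-cell Ago2 kd replicate 1, 74.4 and 74.1 FPKM, and different ones in replicate 2, 23.7 and 71.0 FPKM.

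Of the 54 genes, 19 belonged to 1 of 16 lists of cellular roles and 35 to none. The signalling and cell cycle members were Tnfrsf12a, at 20.5 and 81.6 and then 187.3 and 157.7 FPKM in Ago2 kd, and Plk2, a polo-like kinase, at 15.1 and 12.5 and then 19.4 and 6.44; Hmmr rose by 1.52 (SE 0.36, adjusted p = 0.0159, limma). Mcts2, of a family of translation factors, was at 4.33 and 12.3 and then at 2.16 and 50.6 FPKM, and did not pass the test. It lies within H13 on the same strand. The H13 row had 36.18 and 47.43 FPKM in oocytes, 31.23 and 32.97 in 2-cell Ago2 kd and 0.0509 or less in the 2-cell controls. At the 4-cell stage H13 was at 0.268 FPKM or less in every library. How reads were divided between H13 and Mcts2 was not tested.

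The remaining members are described by their values. AK010878 rose from 4.87 and 23.2 to 62.5 and 108.8 FPKM in Ago2 kd (adjusted p = 0.026, limma), Gm6157 from 6.95 and 8.05 to 331.2 and 103.1 (adjusted p = 0.00121), and Socs3 by 1.44 (SE 0.41, adjusted p = 0.0331). The noncoding B020004C17Rik was at 12 and 88.8 and then at 152.4 and 121.9 FPKM and did not pass the test. Cript, the member with both 2-cell Ago2 kd libraries above both controls, had 34.1 and 34.7 against 23.9 and 29.7 FPKM, and then 0.634 and 59.2 in 4-cell Ago2 kd. AF067063 had 88 and 164.6 FPKM in 2-cell controls and 22.7 and 105.7 in 2-cell Ago2 kd, and its close copy Gm21731 had 101.2 and 126.6 against 18.87 and 96.91. The pseudogenes Gm12799 and Gm15455, both copies of Rbm10, had 24 and 7.47 and 59.3 and 33.3 FPKM in 2-cell Ago2 kd and did not pass the test between the stages. The same held for Glns-ps1, a copy of Glul, Gm5435, a copy of Gtf2a1, and Gm12617, which was at 0.0925 and 28.3 and then at 351.5 and 4.76 FPKM in Ago2 kd.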

How the data were processed

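RNA-seq was performed by the authors on MII oocytes and on 2-cell and 4-cell embryos, control and Ago2 kd, with 2 libraries in each of the 5 groups, which were assigned from the sample titles. Per the methods and the labels, reads were trimmed, aligned to GRCm38 (mm10) with HISAT2 2.1.0 and summarised with StringTie, and the authors deposited FPKM with 1 value per gene name and library; how transcripts were reduced to 1 row is not given in the sources used here. The low values showed no common step (the most frequent ratio between replicates, within 1%, held for 2.39% to 4.57% of genes below 0.3 FPKM), so reads and depth could not be recovered.

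Members were found by the thresholds stated in the report. The members, gene lists and motifs were chosen with earlier results of these data known. FPKM were analysed as log2(FPKM + 1) in limma 3.58.1 (R 4.3.3) for the 8726 genes that reached 1 FPKM in 2 or more of the 10 libraries, with 1 mean per group, a variance trend on the mean, 5 residual degrees of freedom and median prior degrees of freedom of 1.89. Tests were two-sided with Benjamini-Hochberg adjustment over all genes tested, and called at 0.05. With 2 libraries against 2, an exact permutation test cannot go below 0.333 and was not used. Genes were matched by name to GENCODE M21 (GRCm38) and copies found with blastn 2.17.0 among its transcripts. Named were, per stage, up to 5 falls and 5 rises of Ago2 kd against control (called, then unadjusted p under 0.05, groups not overlapping), 3 rises and 3 falls within Ago2 kd by the same rule, the 5 highest members in Ago2 kd, the 2 highest of each role list, the 3 genes on either side of the 10 FPKM threshold and members the study names; other genes were named after their values were seen. Alternatives were a pseudocount of 0.1, no filter, median scaling, quantile normalization, the replicate number as a block, only the groups compared, each library left out, and other thresholds.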

Additional observations from a re-analysis of the deposited data

Results flagged for a closer look

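The effect of Ago2 kd on Vimp differed between the stages by a test of the difference itself (interaction term of limma, adjusted p = 0.00701): both 2-cell Ago2 kd libraries were listed at 0 and the 4-cell Ago2 kd libraries stood at 354.7 and 279.3 FPKM against 349.7 and 283.8 in controls. The control libraries in this comparison also chose the gene, at 10 FPKM or more, so the value is a description and not independent evidence, and the same holds for the differences that follow. For a further 2 genes, both Ago2 kd libraries lay below both controls at the 2-cell stage and above both at the 4-cell stage. In Usp17lb the effect at the 4-cell stage minus that at the 2-cell stage was 1.72 on the log2(FPKM + 1) scale (SE 0.47, adjusted p = 0.162, limma). In Ppil1 it was 1.45 (SE 0.51, adjusted p = 0.275), with 12.8 and 13.1 FPKM in 2-cell controls, 8.47 and 7.10 in 2-cell Ago2 kd, 51.7 and 31.4 in 4-cell controls and 64.5 and 75.3 in 4-cell Ago2 kd. For these 2 genes a difference between the stages did not pass the test. Usp17lb also has close copies, whose rows did not move together at the 2-cell stage.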

How the results depend on the processing

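Called members numbered 2 at the 2-cell stage, 2 at the 4-cell stage, 29 within Ago2 kd and 1 for the difference between stages. With only the groups compared in the fit, which leaves fewer libraries to estimate the spread, the numbers became 0, 0, 20 and 1, the third with no fall called; without the filter on low values the second became 1, since Gm11517 was lost. With a library left out the ranges were 2 to 3, 1 to 3, 20 to 30 and 1 to 3. With the replicate number as a block the numbers were 2, 2, 29 and 1, with Pop4 lost and Tnfrsf12a gained within Ago2 kd. The deviations of same-numbered libraries correlated by −0.0931 to 0.0924, highest between the 2 groups of 2-cell embryos. In both, replicate 1 lay below replicate 2 in most members, 81.5% in controls and 74.1% in Ago2 kd. Of all genes tested it did so in 48.7% and 50.3%. Whether the numbers pair the libraries is not known from these values. Of the 29 calls within Ago2 kd, 21 held under a pseudocount of 0.1, no filter, both scalings and the block, 18 with each library left out and 17 under every alternative; AK010878, Clp1, Gabpa, Gm11517, Hmmr, Pop4, Pramel6, Sertad1, Socs3, Tceb3, Ubtfl1 and Copz1 were lost under at least 1. No single-gene difference that was called or nominal changed sign: 458 of those values kept their side of the threshold, 61 lost it and 3 gained it; apart from what is said above, the cause was not tested. Median scaling moved the median of all genes within Ago2 kd from 0.175 to 0.000.

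The set held 95 genes at 5 FPKM, 26 at 20 FPKM, 47 and 66 at 0.5 and 2 FPKM in oocytes, 69 under median scaling, and 105 or 162 on control replicate 1 or 2 alone. Members expressed in both 2-cell Ago2 kd libraries numbered 25 at 10 FPKM, 38 at 5 FPKM, 46 at 1 FPKM and 32 under median scaling, and 43 or 29 without Ago2 kd replicate 1 or 2; at the 4-cell stage the range was 38 to 49. Depth is unknown, so a value of 0 has no limit of detection.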
